A study of Mus musculus with 7 samples.

Results

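Sarcolipin (Sln) and the core genes by which skeletal muscle stores and releases calcium were followed as a set of 10 genes: Sln, Pln, Atp2a1, Atp2a2, Atp2a3, Ryr1, Cacna1s, Casq1, Casq2 and Trdn. Members were chosen by gene symbol with their RPM (reads scaled to 1000000 per library) in the comparison of hypercapnia with normocapnia already in view, and Sln was selected on those values, so the group differences of the members are given as a description and carry no test. Of the 10 genes, 9 were analysed, out of 23930 genes in the table, and Trdn (triadin) was not analysed here. Of the 9, 8 had a mean of at least 1 RPM over the 7 libraries, and Pln was below it.

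RNA came from GFP+ mononuclear cells sorted by FACS from dissociated hind limb muscle of mice that carried an inducible Pax7-GFP reporter. In this reporter tamoxifen activates a Cre driven from Pax7, which switches on GFP for good, so the progeny of satellite cells (the stem cells of skeletal muscle) also stay labelled. From 12 weeks of age all mice breathed either room air (normocapnia, libraries NC1 to NC3) or 10% CO2 (hypercapnia, libraries HC1 to HC4) for 4 weeks, and were collected at 16 weeks. All were given tamoxifen from the start of this period, per the study's methods in their chow while the exposure was under way, so the cells were labelled in room air or in CO2. Per the study's methods, both groups also received cardiotoxin in the leg muscles 3 days before collection. The labels do not mention the injury, and the title of the deposited table gives a time shorter than 3 days, so the interval after injury is not certain. The strain in the genotype label was C57BL/6 for NC1 and its number ran up by library to C57BL/12 for HC4, a step of 1 per library. The study's methods describe controls of matching genotype, and whether these numbers mark real differences in strain is not known. No source used here says whether a library is a single mouse or a pool, so the spread between libraries may in part be technical.

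In skeletal muscle a voltage sensor in the transverse tubule opens the calcium release channel of the sarcoplasmic reticulum, and calcium bound to calsequestrin in that store flows out to start contraction. SERCA pumps then return calcium to the store, and small membrane peptides such as sarcolipin and phospholamban bind the pumps and restrain them. Most of these proteins appear as satellite cells differentiate and fuse, whereas Atp2a2 also encodes the SERCA pump that nearly all cells use.

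The peptides that restrain SERCA are among the shortest proteins of muscle, and their coding sequences are shown because Sln had the largest group difference of the set and Pln, its relative, was close to undetected. Both are taken from GENCODE M21 (GRCm38) and read 5′ to 3′, with the start and stop codons in capitals. The Sln coding sequence (chr9:53853473-53853568, + strand) lies within 1 coding exon and has 96 bases for 31 codons before the stop, and that of Pln (chr10:53343864-53344022, + strand) has 159 bases for 52 codons, also within 1 exon. Where on each transcript the amplicon of the panel lies is not given in the sources used here.
Sln: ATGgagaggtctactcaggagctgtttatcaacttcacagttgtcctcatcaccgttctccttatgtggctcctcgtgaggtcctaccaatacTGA
Pln: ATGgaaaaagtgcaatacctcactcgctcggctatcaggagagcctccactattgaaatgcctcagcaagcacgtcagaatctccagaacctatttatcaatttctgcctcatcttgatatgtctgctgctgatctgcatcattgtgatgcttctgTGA

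Each library held between 14527445 and 23388710 reads, so that 1 read was worth 0.0428 to 0.0688 RPM and 3 reads, taken as the detection limit, 0.128 to 0.207 RPM. Values are listed throughout in the order NC1, NC2, NC3 and HC1, HC2, HC3, HC4. The panel amplifies a single short stretch of each gene, so RPM compares a gene between libraries and not genes with each other. The libraries differed widely in cell type markers. Pax7, the transcription factor that defines satellite cells, was at 268, 8.25 and 4.34 RPM in normocapnia and at 21.5, 20.1, 79.5 and 59.6 RPM in hypercapnia. Myog, which drives terminal differentiation, ran from 871 RPM in NC1 to 0.138 RPM in NC3. The summed level of 10 macrophage genes was 12228 RPM in NC1, 35306 RPM in NC3 and 19925 to 24840 RPM in hypercapnia, but most of it was Lyz2, and 4 of the 10 genes were lowest in NC3. Without Lyz2 the sum was lowest in NC1 at 3874 RPM and highest in NC2 at 10399 RPM, with 6199 RPM in NC3. Pax7 thus differed 61.9-fold between libraries that carry the same label of Pax7+ stem cells. In bulk RNA, fewer cells of a type and less RNA per cell cannot be told apart.

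Sln was detected in all 7 libraries but rested on few reads in most of them. Normocapnia gave 24.5 RPM in NC1, 2.01 RPM in NC2 and 0.551 RPM in NC3, from 550, 47 and 8 reads. Hypercapnia gave 0.685, 0.151, 0.187 and 0.542 RPM in hypercapnia, from 16, 3, 3 and 8 reads. NC1 and NC2 stood above every hypercapnia library, but NC3 lay below HC1, so the groups overlapped. The 95% exact Poisson interval, which covers counting error only, ran from 22.5 to 26.7 RPM in NC1 and from 1.48 to 2.67 RPM in NC2, and these intervals met no other. The interval of NC3, 0.238 to 1.09 RPM, overlapped those of all 4 hypercapnia libraries, among them HC1 with 0.391 to 1.11 RPM and HC2 with 0.0311 to 0.441 RPM. The group means were 9.03 ± 13.4 RPM (SD, n = 3) in normocapnia and 0.391 ± 0.264 RPM (SD, n = 4) in hypercapnia. On the log2(RPM + 1) scale the difference of hypercapnia minus normocapnia was -1.84 with a standard error of 0.98. The highest library was 162-fold above the lowest, the widest range of the set. Without NC1 the difference was -0.65, and without NC3 it was -2.68.

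Pln, which encodes phospholamban, the SERCA inhibitor of heart and slow muscle, gave 2 reads in NC1, 2 reads in HC3 and 0 reads in the other 5 libraries. For the libraries at 0 reads the upper bound of the 95% exact Poisson interval was 0.158 to 0.254 RPM. Both detected values, 0.089 and 0.125 RPM, were under the limit of 3 reads of their libraries, so no difference was detectable at this depth. Mrln, which encodes myoregulin, was the only other pump-regulating micropeptide of the 4 listed that was analysed. Its RPM was 18.9, 0.556 and 1.24 in normocapnia and 1.54, 0.502, 4.31 and 4.94 in hypercapnia. Like Sln it was highest in NC1, but unlike Sln it was higher in HC3 and HC4 than in NC2 and NC3, and its log2 difference was -0.31 with a standard error of 1.05. Without NC1 the difference of Mrln was 0.83, and without NC2 it was -1.01.

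**Figure D1:**
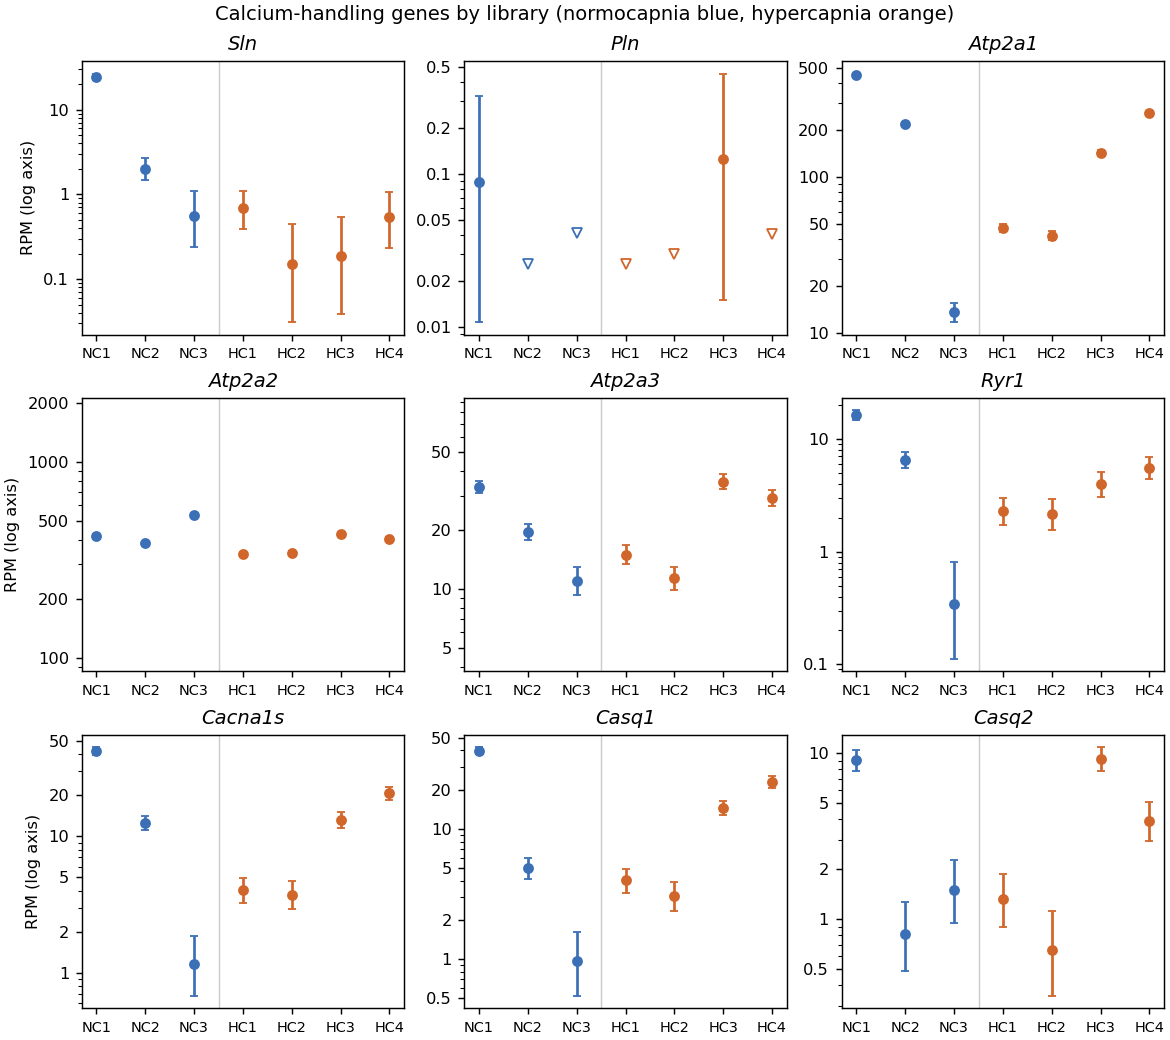
RPM of the 9 members (log axes, a separate scale for each gene) in the 3 normocapnia libraries (blue) and the 4 hypercapnia libraries (orange), with points for the value, bars for the 95% exact Poisson interval and open triangles for libraries with 0 reads, set below the worth of 1 read. Sln in NC1 is at 24.5 RPM and all 4 hypercapnia libraries are under 1 RPM, Atp2a2 stays between 339 and 536 RPM, and Atp2a1, Ryr1, Cacna1s and Casq1 share a profile with NC1 on top and NC3 at the bottom.

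Among the SERCA pumps, the fast-fibre gene Atp2a1 (SERCA1) varied most. It was at 452, 220 and 13.6 RPM in normocapnia and at 47.4, 42.1, 143 and 259 RPM in hypercapnia. Every hypercapnia library lay between NC3 and NC1, and the range over the 7 libraries was 33.2-fold. The means were 229 ± 220 RPM (SD, n = 3) and 123 ± 102 RPM (SD, n = 4), and the log2 difference of -0.27 was smaller than its standard error of 1.39. HC3 and HC4 each had several times the level of HC1 and HC2, a split within 1 group that exceeded the difference between the groups.

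Atp2a2 (SERCA2), the pump of slow muscle and heart that most other cells share, was the steadiest member. It measured 417, 384 and 536 RPM in normocapnia and 339, 341, 427 and 402 RPM in hypercapnia. The means were 446 ± 80.1 RPM (SD, n = 3) in normocapnia and 377 ± 44.3 RPM (SD, n = 4) in hypercapnia, with overlapping groups, a 1.58-fold range and a log2 difference of -0.23 with a standard error of 0.15. NC3, the library with the least Atp2a1, had the most Atp2a2. The ratio of Atp2a1 to Atp2a2, of use only to follow its change between libraries, was 1.09, 0.573 and 0.0254 in normocapnia and 0.14, 0.123, 0.335 and 0.645 in hypercapnia.

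Atp2a3 (SERCA3), a pump known best from blood, endothelial and epithelial cells, was between these extremes. Its RPM was 33.4, 19.6 and 11.0 in normocapnia and 15.0, 11.4, 35.4 and 29.2 in hypercapnia. HC3, NC1 and HC4 were the 3 highest libraries and NC3 was the lowest, with a 3.22-fold range and a log2 difference of 0.08 with a standard error of 0.54. The same 3 libraries were the highest for the summed endothelial, neutrophil, Schwann cell, smooth muscle, fibro-adipogenic, satellite cell and sarcomere genes. Endothelial genes, for example, summed to 560, 425 and 241 RPM in HC3, HC4 and NC1 against 58.2 to 119 RPM in the other 4 libraries, and the part of these lists in the result was not tested.

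The release channel and its voltage sensor followed Atp2a1. Ryr1, the ryanodine receptor of skeletal muscle, was at 16.3, 6.5 and 0.344 RPM in normocapnia, the last from 5 reads, and at 2.31, 2.16, 4.0 and 5.55 RPM in hypercapnia. Cacna1s, the pore subunit of the L-type calcium channel that senses voltage in the transverse tubule, was at 42.3, 12.5 and 1.17 RPM in normocapnia and at 4.02, 3.72, 13.2 and 20.6 RPM in hypercapnia. For both genes NC1 was the highest and NC3 the lowest of the 7 libraries, so the hypercapnia values lay wholly within the span of normocapnia. The log2 differences were -0.38 with a standard error of 0.91 for Ryr1 and -0.23 with a standard error of 1.18 for Cacna1s. Ranges were 47.3-fold and 36.2-fold.

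Casq1, the calsequestrin of fast fibres, showed the same order of libraries as Cacna1s. It was at 39.8, 5.0 and 0.964 RPM in normocapnia and at 4.02, 3.06, 14.5 and 22.9 RPM in hypercapnia, a 41.3-fold range, with a log2 difference of 0.25 and a standard error of 1.23. Casq2, the calsequestrin of heart and slow fibres, was at 9.05, 0.812 and 1.51 RPM in normocapnia and at 1.33, 0.653, 9.25 and 3.93 RPM in hypercapnia. HC3 and NC1 were the highest libraries for Casq2 and HC2 the lowest, so it differed from Casq1 in placing HC3 at the top and NC3 in the middle. Its group means were 3.79 ± 4.57 RPM (SD, n = 3) and 3.79 ± 3.9 RPM (SD, n = 4).

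Taking the 9 analysed members as a list, 0 passed in limma at an unadjusted p under 0.05 and a fold above 1.5, where 2.57% of all 23930 genes did, 1.43% as higher and 1.14% as lower in hypercapnia. No member had an unadjusted p under 0.05 in limma. On the recovered reads edgeR, after its filter of low genes, and DESeq2 each called 1, Sln, where they called 802 and 1304 genes in all. Since the members were picked with this contrast in view, nothing is read from these counts. None of the 9 had groups that did not overlap, against 5.38% of the 21487 genes not at 0 in every library. The log2 difference was positive in 4 members and negative in 5, with a median of -0.23, where the median over all genes was 0.017 and over those whose mean reached 1 RPM 0.16. The 4 include Pln, which was at 0.0 after rounding and below the detection limit. In 7 of the 9 members the standard error was larger than the difference itself. Of the 8 members at 1 RPM or more, 5 were highest in NC1, 5 were lowest in NC3, and 7 had HC3 and HC4 both above HC1 and HC2. After Benjamini-Hochberg adjustment limma called 0 genes of the whole table, with a lowest adjusted p of 0.351 and 1114 genes at an unadjusted p under 0.05, while edgeR on the recovered reads called 0 and DESeq2 29.

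The summed myofiber and sarcomere genes ran with Atp2a1, Ryr1, Cacna1s and Casq1, but not with all members. Atp2a2 was highest in NC3, where that sum was lowest. Sln was low in HC3, where the sum was above those of NC2, NC3, HC1 and HC2. The summed level of 22 of 24 listed myofiber and sarcomere genes was 7367, 1721 and 435 RPM in normocapnia and 924, 533, 2000 and 3252 RPM in hypercapnia, the same order of libraries as Casq1 and Cacna1s. Of these 22 genes 20 were highest in NC1, none was at 0 in every library, and none passed the thresholds between the groups. Acta1, the skeletal muscle actin, was at 402, 251 and 4.75 RPM in normocapnia and 76.5 to 151 RPM in hypercapnia. The 6 myocyte differentiation genes summed to 1418, 95.3 and 48.4 RPM in normocapnia and 157 to 455 RPM in hypercapnia, and the 10 satellite cell genes to 2514, 866 and 568 RPM and to 599 to 1047 RPM. In NC2 the myocyte differentiation sum was below every hypercapnia library. Atp2a1, Ryr1, Cacna1s and Casq1 in NC2 were instead above HC1 and HC2. The part of these lists in the levels of the calcium-handling genes was not tested.

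**Figure D2:**
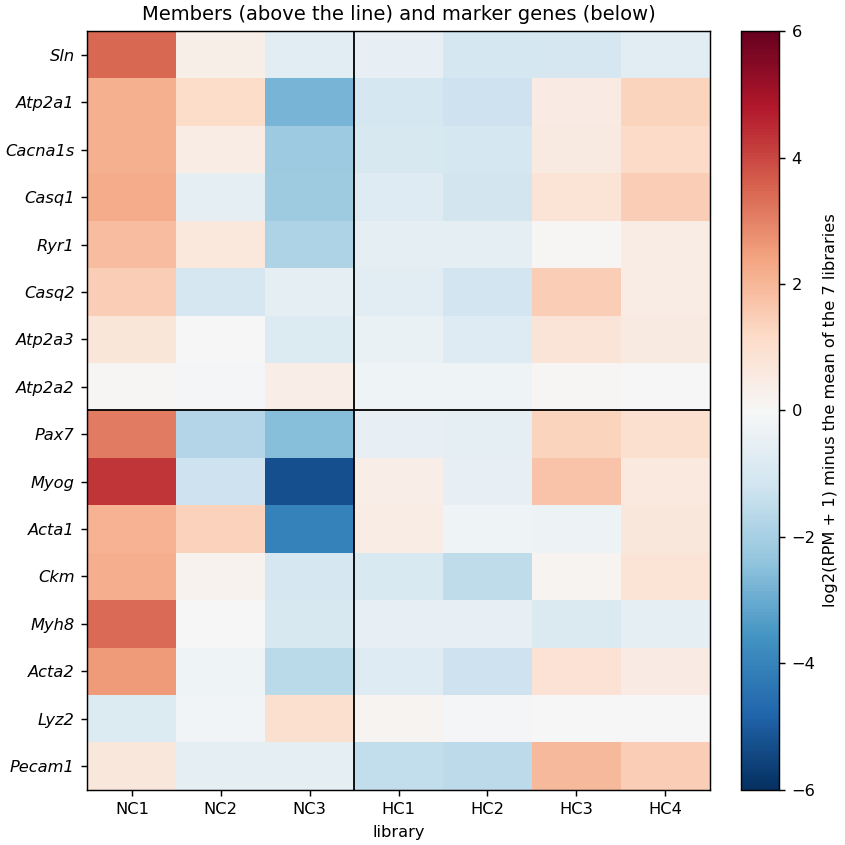
Log2(RPM + 1) of 8 members (above the black line) and 8 marker genes (below it) in each of the 7 libraries, as the difference from the gene's own mean over the libraries (red above, blue below). The NC1 column is red and the NC3 column blue from Atp2a1 to Ryr1 and again from Pax7 to Ckm, Atp2a2 is close to white throughout, and Lyz2, a macrophage gene, is bluest in NC1 and reddest in NC3.

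Other cell types with their own calcium machinery were looked for in the same way. Of the 10 smooth muscle and pericyte genes listed, 9 were analysed. They summed to 138 to 1977 RPM in normocapnia and 173 to 828 RPM in hypercapnia. The sum was highest in NC1, where Acta2 alone was at 1670 RPM. Of the 9 genes only 2, Acta2 and Notch3, were highest in NC1, and the others were highest in HC3. Cspg4 alone of them passed the thresholds. The 6 cardiomyocyte genes summed to 7.48 to 123 RPM in normocapnia and 4.87 to 11.0 RPM in hypercapnia. In NC1 that sum was almost wholly Tnnt2 at 117 RPM, a gene that developing skeletal muscle also uses, while Myh6, the defining myosin of the atrium, gave 0 or 1 read in every library. The 4 platelet genes summed to 384 to 3041 RPM in normocapnia and 1045 to 2738 RPM in hypercapnia, lowest in NC1 and almost wholly Pf4 and Ppbp. Of the other two, Gp9 had 0 to 2 reads in every library and Itga2b, at 1.38 to 6.91 RPM, was highest in NC1. Fibro-adipogenic genes (7 of 7) spanned 1067 to 1897 and 973 to 2372 RPM, neutrophil genes (7 of 7, with Mpo at 0 throughout) 30.1 to 138 and 12.9 to 171 RPM, and Schwann cell genes (5 of 5) 10.5 to 30.9 and 11.9 to 108 RPM. Lymphocyte genes (7 of 8) stayed at 1.17 to 7.03 RPM over all libraries, and 2 of 5 red blood cell genes at 0.214 to 15.7 RPM. Of the macrophage genes, Adgre1 was the only 1 of 10 past the thresholds, at 70.5 to 149 RPM in normocapnia and 151 to 429 RPM in hypercapnia.

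To follow the members against the amount of differentiated muscle RNA, each was divided by the summed myofiber and sarcomere genes. Atp2a1 then gave 61.4, 128 and 31.3 RPM per 1000 RPM of those genes in normocapnia and 51.3, 78.8, 71.4 and 79.7 in hypercapnia, and its range narrowed from 33.2-fold to 4.09-fold. Cacna1s narrowed from 36.2-fold to 2.7-fold, Casq1 from 41.3-fold to 3.27-fold and Ryr1 from 47.3-fold to 5.13-fold. All 4 still overlapped between the groups. Atp2a2 went the other way, from a 1.58-fold to a 21.8-fold range, with 56.6 in NC1 and 1230 in NC3.

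Sln did not follow the sarcomere genes as closely. Its values per 1000 RPM of sarcomere genes were 3.33, 1.17 and 1.27 in normocapnia and 0.742, 0.283, 0.0935 and 0.167 in hypercapnia. By this ratio every normocapnia library was above every hypercapnia library, which held for 1 of the 9 members and for 4.25% of the 21487 genes when treated alike. The values of HC2 and HC3 rest on 3 reads each, and those of NC3 and HC1 on 8 and 16. With the divisor taken as known, the 95% exact Poisson intervals of NC2 (0.86 to 1.55) and NC3 (0.547 to 2.5) overlapped that of HC1 (0.423 to 1.2). The step from NC2 and NC3 to HC1 was thus not beyond counting error by these intervals. The interval of NC3 also overlapped that of HC2 (0.0583 to 0.827). Those of HC3 (0.0193 to 0.274) and HC4 (0.072 to 0.329) met no normocapnia interval. The separation depended on the divisor: per 1000 RPM of Atp2a1, Sln was at 54.2, 9.12 and 40.4 in normocapnia and 14.5, 3.59, 1.31 and 2.09 in hypercapnia, and NC2 lay below HC1. Per 100 RPM of the 10 satellite cell genes NC3, at 0.0971, lay below HC1, at 0.111. Most of that sum in NC2, NC3, HC1 and HC2 was Sdc4, which many cell types express. Without Sdc4, a choice made after seeing the data, Sln was at 1.37, 2.38 and 0.436 in normocapnia and 0.391, 0.0889, 0.0313 and 0.121 in hypercapnia. The values of the groups then did not overlap, as was so for 1.95% of the 21487 genes, but the intervals of NC3 (0.189 to 0.863) and HC1 (0.223 to 0.634) did. As Sln was selected on these libraries, the ratio is a description and no test was made of it.

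**Figure D3:**
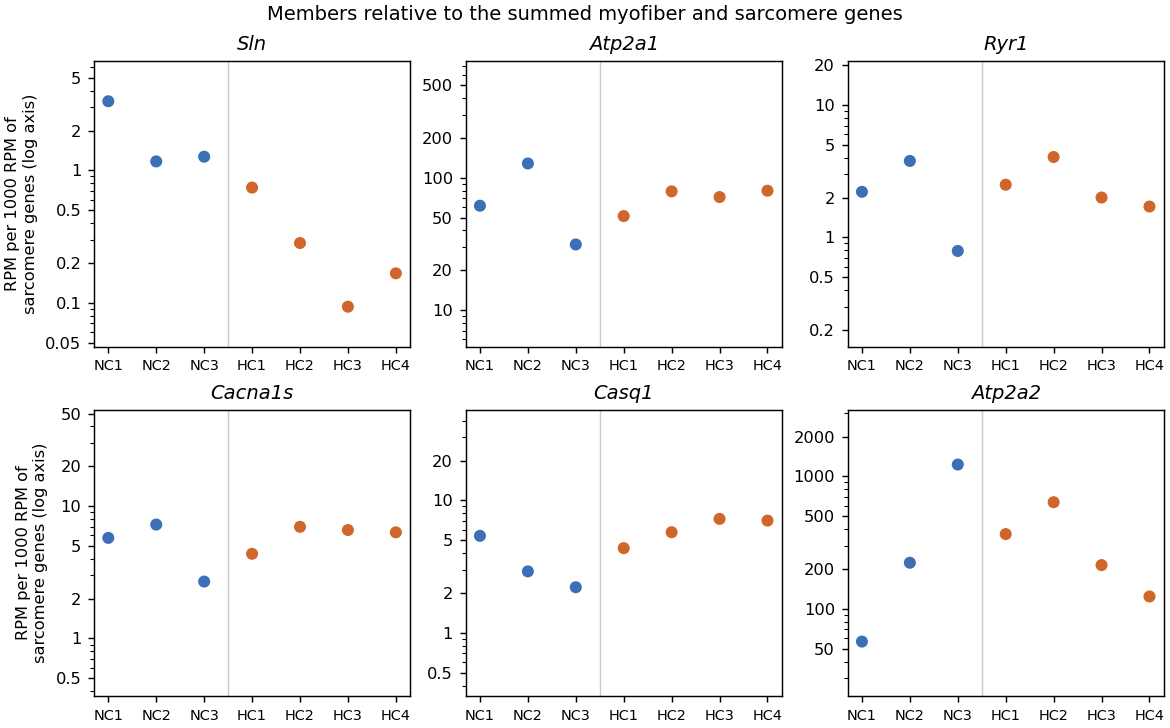
RPM of 6 members per 1000 RPM of the summed myofiber and sarcomere genes (log axes, a separate scale for each gene) in the normocapnia (blue) and hypercapnia (orange) libraries, 1 point for each library. Sln is at 1.17 or above in the 3 normocapnia libraries and at 0.742 or below in the 4 hypercapnia libraries, Cacna1s spans 2.69 to 7.25 and Atp2a1 31.3 to 128 with overlapping groups, and Atp2a2 spans 56.6 to 1230.

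Likeness between genes was measured as the root mean square difference of their centred log2(RPM + 1) over the 7 libraries, a description in which all genes share the same libraries. Within the set, Atp2a1 and Cacna1s were closest at 0.36, followed by Casq1 and Cacna1s at 0.42 and Ryr1 and Cacna1s at 0.44. The ratio of Cacna1s to Atp2a1 varied 1.65-fold over the 7 libraries. Sln was far from all other members, with Ryr1 nearest at 0.97, and Atp2a1 and Atp2a2 were the farthest apart at 1.68. Among genes whose mean reached 1 RPM, those nearest to Sln were Myh8 at 0.30, which encodes the perinatal myosin heavy chain, Dcx at 0.35 and Otoa at 0.45. Myh8 was at 19.8, 0.898 and 0.0 RPM in normocapnia and at 0.062 to 0.402 RPM in hypercapnia, so it shared with Sln a level in NC1 far above the rest. The nearest genes of Atp2a1 were Col4a2 at 0.36, Cacna1s at 0.36 and Tnnt3, the fast troponin T, at 0.40.

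The remaining members had closer partners. Ryr1 was nearest to Myoz1 at 0.17, Ssc5d at 0.18 and B3gnt5 at 0.25. Cacna1s was nearest to Asb2 at 0.23, the fast-fibre actinin Actn3 at 0.25 and the sodium pump regulator Fxyd1 at 0.27, and Casq1 to the chaperone Cryab at 0.20, Sobp at 0.24 and Cox8b at 0.25. For Casq2 the nearest were H2-Oa at 0.22, Tmtc2 at 0.23 and Yes1 at 0.23. Atp2a3 was nearest to Pcolce at 0.11, Ccdc102a at 0.14 and Avpr1a at 0.14, and Atp2a2 to Rfxap, Snw1 and Ap1m1, each at 0.07. Small differences are easier to reach for genes that vary little, and Atp2a2 itself had a standard deviation of 0.22 over the 7 libraries on this scale, against 1.76 for Atp2a1.

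Of the members with the profile of Atp2a1, some share a 6-base motif upstream of their start. The motif CAGCTG, a form of the E-box that myogenic basic helix-loop-helix factors such as MyoD and myogenin can bind, was searched in the 250 bases before the RefSeq start of 7 members (the windows of Sln, Atp2a2 and Trdn were not used here). It reads the same on both strands and is contained in the general E-box CANNTG. It occurred in 3 of the 7 windows, with its first base at -55 for Atp2a1, -123 for Cacna1s and -195 for Casq1, and in 13.0% of 32817 windows of the same length. The general form occurred in 5 of the 7 and in 66.2% of all windows. Ryr1 had neither form. A match is only a description of the sequence. The 3 windows are shown 5′ to 3′ on the strand of the gene (RefSeq, GRCm38.p6) with CAGCTG in capitals, for Atp2a1 at chr7:126463074-126463323, - strand, for Cacna1s at chr1:136052561-136052810, + strand and for Casq1 at chr1:172219896-172220145, - strand.
Atp2a1: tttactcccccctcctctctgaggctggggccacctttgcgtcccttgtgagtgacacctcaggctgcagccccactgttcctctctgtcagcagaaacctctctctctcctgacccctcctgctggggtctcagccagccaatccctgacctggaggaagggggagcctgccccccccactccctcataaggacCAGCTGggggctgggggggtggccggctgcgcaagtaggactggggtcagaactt
Cacna1s: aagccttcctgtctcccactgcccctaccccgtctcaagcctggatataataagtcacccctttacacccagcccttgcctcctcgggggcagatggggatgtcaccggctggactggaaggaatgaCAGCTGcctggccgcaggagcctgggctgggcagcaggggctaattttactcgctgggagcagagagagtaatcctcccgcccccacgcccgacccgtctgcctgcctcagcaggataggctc
Casq1: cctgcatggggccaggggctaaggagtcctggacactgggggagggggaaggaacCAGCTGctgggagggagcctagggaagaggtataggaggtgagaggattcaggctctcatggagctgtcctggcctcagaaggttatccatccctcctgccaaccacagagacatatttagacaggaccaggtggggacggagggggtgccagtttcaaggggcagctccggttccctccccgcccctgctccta

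How far the group differences of the members rested on single libraries was read by leaving out each library in turn. Without NC1 the log2 difference was positive in 7 of the 9 members, and without NC3 it was negative in all 9. Both counts include Pln, at 0.04 and -0.02, which was below the detection limit. Atp2a1 moved from -0.27 to 0.72 without NC1 and to -1.75 without NC3. Ryr1 and Cacna1s also turned positive without NC1, at 0.44 and 0.77, and stood at -1.40 and -1.39 without NC3. Casq1 ran from -0.75 without NC3 to 1.44 without NC1. Atp2a2 moved only between -0.33 and -0.09, and Sln was the other member whose sign held under all 17 alternatives tried. Sln ran from -4.31 to -0.65 over these and Atp2a2 from -0.48 to -0.03.

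**Figure D4:**
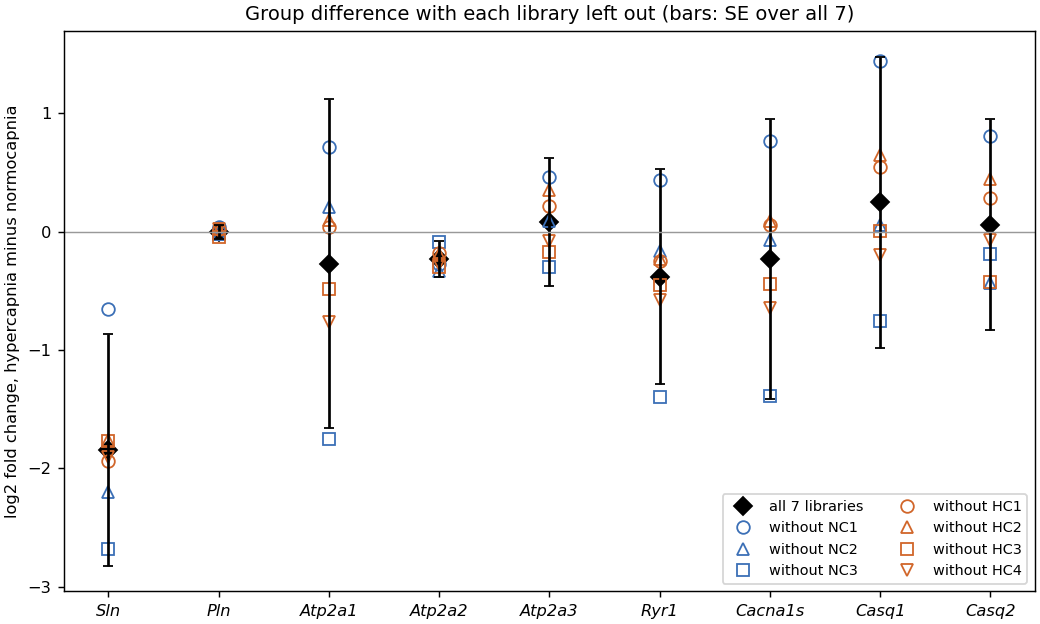
Log2 difference of hypercapnia minus normocapnia on the log2(RPM + 1) scale for each member, over all 7 libraries (black diamonds, with bars of 1 standard error) and with each library left out (open symbols, blue for a normocapnia and orange for a hypercapnia library). Sln stays below 0 in every case, from -2.68 to -0.65, Atp2a2 stays close to its value of -0.23, and Atp2a1, Ryr1 and Cacna1s cross 0 when NC1 is left out.

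The wider calcium pathway was read from 67 other genes, listed by role and not by how they moved, of which 62 were analysed. In limma with unadjusted p under 0.05 and a fold above 1.5, 1 was higher in hypercapnia, 2 were lower and 59 did not pass, 4.84% of the 62 against the 2.57% over all genes. None passed after Benjamini-Hochberg adjustment over the whole table. The log2 difference was positive in 27 and negative in 35, with a median of -0.02, and in 5 the groups did not overlap, against the 5.38% of genes given above. Of the 62 genes 24 were highest in NC1 and 30 lowest in NC3.

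Genes of the triad and of calcium release (22 of 22) held 2 of the 3 calls. S100a1, a calcium sensor that binds the ryanodine receptor, was at 30.0, 29.9 and 40.5 RPM in normocapnia and 17.4, 22.5, 18.7 and 20.9 RPM in hypercapnia. Every hypercapnia library was below every normocapnia library, and the log2 difference was -0.71 with a standard error of 0.14 (limma, unadjusted p = 0.00319, adjusted p = 0.687). This call was lost without NC3, at -0.57. Calr, or calreticulin, which binds calcium in the endoplasmic reticulum of most cells, was at 813, 850 and 1330 RPM in normocapnia and 1650, 1330, 1500 and 1430 RPM in hypercapnia. NC3 and HC2 were equal to 3 digits, with HC2 marginally higher, and the log2 difference was 0.60 with a standard error of 0.19 (limma, unadjusted p = 0.0239, adjusted p = 0.915). Calr was not called under 10 of the 17 alternatives, among them without NC1 (0.47), NC2 (0.50), HC1 (0.55) or HC3 (0.59). Bin1, which shapes transverse tubules and is also used by immune cells, did not pass, at 145 to 457 RPM in normocapnia and 306 to 457 RPM in hypercapnia, with a log2 difference of 0.71. It passed without NC1 (1.21) and without NC1 and NC3 together (1.36).

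The inositol trisphosphate receptor gene Itpr1, named after its values were seen, had groups that did not overlap but did not pass, at 71.8, 51.0 and 10.4 RPM in normocapnia and 75.7, 89.4, 107 and 102 RPM in hypercapnia (log2 difference 1.42, standard error 0.67). Without NC3 its difference was 0.61. Junctophilin genes tie the transverse tubule to the store, and Jph1 and Jph2 were both highest in NC1 (64.4 and 24.8 RPM) and lowest in NC3 (3.51 and 1.03 RPM), as Ryr1 was.

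Of 9 mitochondrial calcium uptake genes, Mcur1, a regulator of the uniporter, was lower in hypercapnia, at 52.5, 34.9 and 77.8 RPM against 28.0, 24.5, 38.0 and 29.3 RPM. HC3 lay above NC2, so the groups overlapped, and the log2 difference was -0.80 with a standard error of 0.30 (limma, unadjusted p = 0.0393, adjusted p = 0.915). The call was lost under 8 of the 17 alternatives, in most of them with a difference of similar size (-0.94 to -0.71, with the calls lost without NC1, HC1, HC2 or HC4 included) and in 1 with -0.52, without NC3. The other, which left NC2 alone for normocapnia, gave -0.23. Smdt1, which encodes a partner of the uniporter pore, did not pass, with a log2 difference of -0.31, or 0.01 without NC3.

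None of the store-operated entry (9 of 9), plasma membrane extrusion (7 of 7) or buffer and sensor genes (14 of 16) passed in limma over all 7 libraries. Orai1, the pore of store-operated entry, was at 18.3, 29.4 and 15.3 RPM in normocapnia and 11.5 to 16.6 RPM in hypercapnia, with a log2 difference of -0.58 and a standard error of 0.25. It did pass with median-of-ratios scaling (-0.71), quantile normalization (-0.76), edgeR (-0.77), DESeq2 (-0.80), without NC3 (-0.77), and without NC1 and NC3 together (-1.10). Its sensor Stim2 and its brake Saraf stood at -0.33 and 1.21, and Saraf was at 12.0 RPM in NC3 against 91.6 to 153 RPM elsewhere. Without NC3 the difference of Saraf was 0.18. Among the plasma membrane pumps Atp2b1, Atp2b2 and Atp2b4 differed by -0.22, 0.42 and -0.20. Atp2b2 had 3 reads or fewer in every library but HC3 (19 reads) and HC4 (7 reads). Its difference was 1.52 with a pseudocount of 0.1 RPM, 2.77 with edgeR without a filter and 2.89 with DESeq2. Atp2b1 was at 0.14 without NC2 and passed at -0.93 without NC1 and NC3 together, and Atp2b4 was at 0.15 without NC1. Calm2, which encodes the calcium sensor calmodulin, differed by 0.14. Ppp3ca, a catalytic subunit of the calcium-dependent phosphatase calcineurin, and its target Nfatc3 had groups that did not overlap, both lower in hypercapnia and highest in NC3, with log2 differences of -0.70 (standard error 0.36) and -0.47 (standard error 0.19). Without NC3 these were -0.25 and -0.29. Ppp3ca passed with edgeR (-1.14, or -1.09 without a filter) and DESeq2 (-1.20), and Nfatc3 without NC2 (-0.61).

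**Figure D5:**
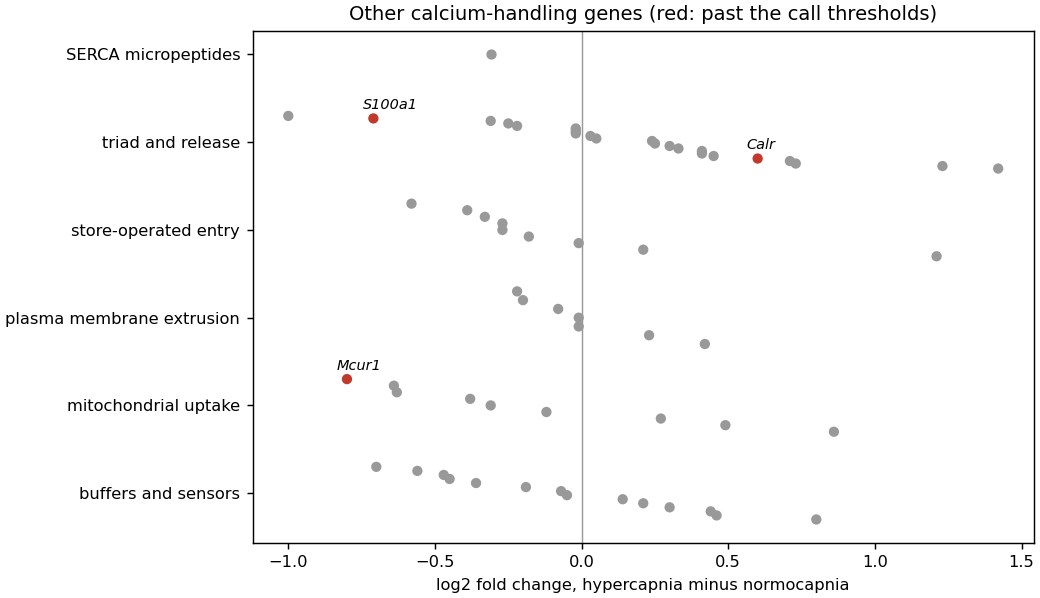
Log2 difference of hypercapnia minus normocapnia on the log2(RPM + 1) scale for the 62 other calcium-handling genes, by role, 1 point for each gene (vertical spread within a role only separates the points). The 3 genes past the thresholds are red: S100a1 at -0.71, Mcur1 at -0.80 and Calr at 0.60.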

How the data were processed

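RNA of sorted Pax7-GFP+ cells was sequenced with the Ion AmpliSeq Transcriptome Mouse panel, 1 amplicon per gene, in 3 normocapnia and 4 hypercapnia libraries. The deposited table gives RPM (reads scaled to 1000000 per library), and the authors analysed their data with the Transcriptome Analysis Console, per the labels. The aligner and the genome build were not given in the sources used here. RPM values were whole multiples of the worth of 1 read in each library (100% of values within 0.05 read), so read counts were recovered. No pair of libraries was a duplicate (lowest chi-square per degree of freedom 24.6 over 21 pairs). That lowest value was for HC1 and HC2, followed by HC3 and HC4 at 27.3, and all other pairs were at 104.6 or above. The hypercapnia libraries thus fell into close pairs, and the source of this was not tested.

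log2(RPM + 1) was fitted with limma 3.58.1 (R 4.3.3) over all genes and 7 libraries without covariates or filter, and genes were called at an unadjusted p under 0.05 and a fold above 1.5, the values of p and fold that the study states, which names neither limma nor an adjustment. Differences understate the change of low genes. The alternatives were other pseudocounts, scalings and filters, edgeR 4.0.16 and DESeq2 1.42.0 on recovered reads, each library left out, and the replicate number as a block. The fit and the recovery of reads were tested on simulated data. The members and gene lists were chosen with earlier results of these data known. Beside the members, the genes named were the 2 of highest mean RPM and the 2 of smallest limma p in each pathway list, leading and defining genes of the marker lists, and the 3 genes most like each member. Some genes that this rule names are not reported here. Itpr1, Jph1, Jph2, Adgre1, Cspg4, Myh6, Mpo, Gp9 and Itga2b were named beyond this rule, after their values were seen. Likeness was measured among genes whose mean reached 1 RPM.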

Additional observations from a re-analysis of the deposited data

Results flagged for a closer look

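Of 24 genes looked at in the 4 hypercapnia libraries, 2 had 1 library far from the others, where chance gives about 1 in 20. In both the library was HC3. For Pln the gap took up the whole range (1.0), which any value above 0 would give, as the other 3 libraries had 0. HC3 had 0.125 RPM from 2 reads, under its limit of 3 reads (0.187 RPM), so this is no sign of a difference. For Stim2 the gap was 0.881 of the range, with 39.8 RPM in HC3 against 23.5 to 25.0 RPM in the others. No cause was tested.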

How the results depend on the processing

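The number of genes called, 615, was 1049 with edgeR without a filter, 1304 with DESeq2 and 1638 without NC1 and NC3 together, an alternative chosen after seeing the data, which leaves NC2 as the only normocapnia library and assumes that it varies as the hypercapnia libraries do. Leaving out 1 library gave 376 to 1990, with the highest count without NC1, 1205 without NC2, 385 without HC1 and the lowest without HC2. No member was called with limma over all 7 libraries, and 1 (Sln) was called with edgeR (802 genes in all), with edgeR without a filter and with DESeq2. Without NC1 and NC3 together the difference of Sln was -1.13. Leaving out 1 library gave 0 to 2 called members, the 2 being Sln and Ryr1 without NC3, where 616 genes of the whole table were called. The 3 calls among the other calcium-handling genes became 5 with quantile normalization, 6 with edgeR, 6 with edgeR without a filter, 8 with DESeq2, and 11 without NC1 and NC3 together. Leaving out 1 library gave 1 to 12 of them, with 12 without NC1, 5 without NC2 and 1 without HC1. Without NC1 and NC3 together S100a1 (-0.57) and Mcur1 (-0.23) lost their calls. The cause of these shifts was not tested. The split of higher and lower calls was 343 and 272 in RPM, 317 and 295 after scaling by median of ratios, 336 and 357 after quantile normalization, 294 and 508 with edgeR and 519 and 785 with DESeq2, while the median difference of genes at 1 RPM or more moved from 0.16 to 0.04, -0.01, -0.01 and -0.04.

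Replicate numbers did not pair the libraries: the deviations of NC1 and HC1, NC2 and HC2, and NC3 and HC3 correlated at -0.349, 0.503 and -0.044. NC2 and HC2 was the highest of all pairs, but pairs of unlike number came next. These were NC2 and HC1 at 0.452 and NC1 and HC3 at 0.388. With the replicate number as a block, over the 6 libraries that share one, 598 genes, 0 members and 2 other calcium-handling genes (S100a1 and Mcur1) were called.

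Depth limits Pln everywhere and Sln in HC2 and HC3, which hold 3 reads each.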
